A study of Mus musculus with 8 samples.

Results

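The 10 genes described here belong to chemokine biology and were followed in SV-LECs with and without TGFβ1. The study describes SV-LECs as mouse lymphatic endothelial cells. The genes were 7 chemokine genes (Cx3cl1, Cxcl16, Cxcl1, Cxcl5, Cxcl10, Cxcl12 and Cxcl14), the scavenger receptor gene Ackr3, and the protease genes Adam10 and Adam17. Members were taken from the count table by their symbols, each of which occurred in 1 row, so that 10 of 55471 listed genes were selected. Of these, 9 passed the filter on low counts and were among the 13818 genes tested. The 9 genes had at least 47 reads in every library of both groups, and Cxcl14, with 0 to 8 reads per library, was the gene that did not pass.

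The study compared SV40-immortalized svLEC cells, derived from mesenteric adventitial tissue, that were left untreated with the same cells treated with TGFβ1 at 10 ng/ml for 72 h. Poly(A) RNA of 4 samples per group was sequenced from stranded libraries with single-end reads of 75 bases. The cells are 1 immortalized line, and the study calls its quadruplicates technical replicates, so errors and p-values cover the spread between these libraries and not that between independent experiments. The study made this comparison to find chemoattractants that lymphatic endothelial cells make when they meet TGFβ1, a cytokine found in tumor tissue. In these libraries several markers of that cell type were almost absent, as given below.

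Chemokines are small secreted proteins that guide migrating cells through G protein-coupled receptors. CX3CL1 and CXCL16 differ from the others in being made as transmembrane proteins with the chemokine domain held on a mucin-like stalk, where they act as adhesion molecules. The metalloproteinases ADAM10 and ADAM17 cut them near the membrane and release soluble chemoattractants, so that both the amount of ligand and its cleavage matter for the form in which the ligand is presented. ACKR3 binds CXCL12 and removes it from the surroundings without signaling through G proteins.

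Total counts were between 18952504 and 26386941 per library, and 3 reads corresponded to 0.113 to 0.162 CPM (reads per 1000000 of the TMM-normalized library size), a floor that covers counting error only. Within the groups, libraries differed by more than sampling noise, with chi-square per degree of freedom between 2.37 and 7.84 over the 12 pairs. The defining markers of the labelled cell type were partly absent. Prox1, Lyve1, Pecam1 and Cdh5 had 0 to 5 reads in any library, whereas the podoplanin gene Pdpn had 5707 to 9557 and Flt4, which encodes VEGFR3, had 416 to 755. The 6 lymphatic markers summed to 344 to 381 CPM in untreated and 337 to 348 CPM in treated libraries. Pdpn made up most of this sum, with means of 342 CPM in untreated and 313 CPM in treated libraries. It fell by 0.13 and Flt4 rose by 0.44 on the log2 scale, each without overlap between the groups. All 5 fibroblast or mural markers examined (Pdgfra, Pdgfrb, Col1a1, Cspg4 and Acta2) were expressed, with a summed level of 3154 to 4521 CPM in untreated and 6503 to 7605 CPM in TGFβ1-treated libraries. Col1a1 made up most of this sum, with means of 3459 and 6057 CPM, and 4 of the 5 markers rose while Pdgfra fell by 1.47 on the log2 scale. Of 5 leukocyte markers, Ptprc, Adgre1, Cd3e and Itgam had 0 to 3 reads per library and Cd68 had 121 to 382, and the summed level was 5.83 to 7.82 CPM in untreated and 14.9 to 17.0 CPM in treated libraries. The 5 epithelial markers summed to 0.304 to 1.14 CPM in untreated and 2.56 to 4.15 CPM in treated libraries. Only Krt8, with 2 to 35 reads per library, and Krt18, with 2 to 47, were tested among them, and both rose. The fibroblast or mural, leukocyte and epithelial sums were higher in every treated than in any untreated library, whereas the ranges of the lymphatic sum overlapped, and the part of these levels in the results was not tested.

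All 9 genes tested changed after TGFβ1 at a false discovery rate (FDR) under 0.05 in edgeR, by the likelihood ratio test unless another is named, which 75.6% of all genes tested also did, so the size and direction of each change carry the description rather than the count. Cx3cl1, Cxcl16, Ackr3, Cxcl12 and Cxcl1 rose, and Cxcl5, Cxcl10, Adam17 and Adam10 fell. In CPM by normalized library size, the libraries of the groups did not overlap in 8 of the 9 genes, as in 69.8% of all genes tested. Cxcl10 was the exception. The log2 fold changes ran from -0.97 for Cxcl5 to 3.45 for Cx3cl1, with a median of 0.31 against -0.0064 over all genes tested. In bulk RNA, fewer cells that express a gene and less RNA of it per cell cannot be told apart.

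**Figure D1:**
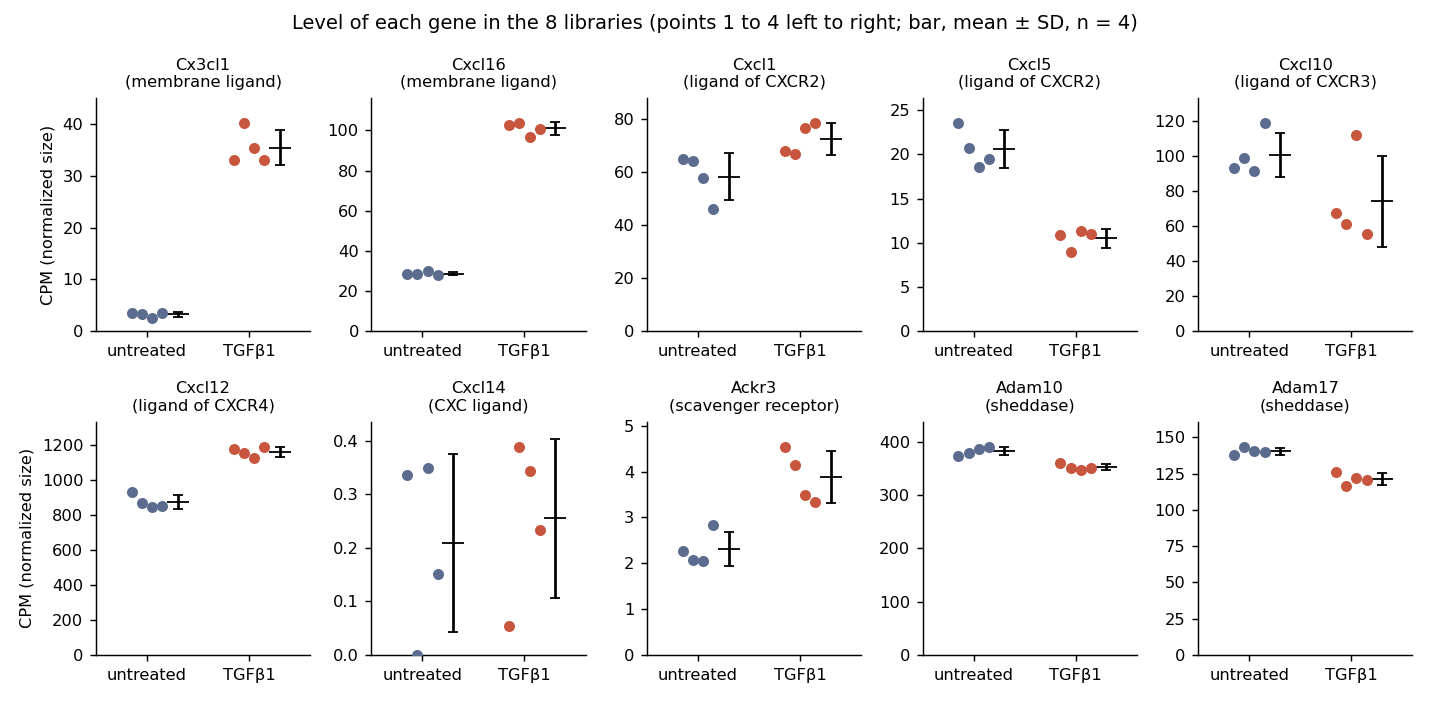
Level of each of the 10 genes in CPM by normalized library size (vertical axes, each from 0) in the 4 untreated (blue) and 4 TGFβ1-treated (red) libraries, with the mean and SD of each group as a bar. The groups are apart in every gene except Cxcl10, in which TGFβ1 replicate 3 reaches 112 CPM, and Cxcl14, which stays below 0.4 CPM throughout.

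The membrane-bound chemokines showed the 2 largest changes. Cx3cl1, which encodes fractalkine, an adhesion ligand and attractant for cells bearing CX3CR1, was at 3.57, 3.31, 2.58 and 3.55 CPM in the untreated libraries and at 33.0, 40.2, 35.4 and 33.1 CPM in the treated libraries. The highest untreated library therefore lay far below the lowest treated library. The means were 3.25 ± 0.464 and 35.4 ± 3.35 CPM (SD, n = 4 each), a 10.9-fold rise, and the log2 fold change was 3.45 with a 95% interval of 3.23 to 3.68. Of the 13818 genes tested, 158 had a larger log2 fold change. Cxcl16, which encodes the ligand of CXCR6 and a scavenger receptor for oxidized lipoprotein, was at 28.6, 28.3, 29.8 and 28.1 CPM in untreated and 103, 104, 96.5 and 101 CPM in treated libraries. It was thus already well expressed before treatment, and its libraries were tightly grouped on both sides. The rise was 3.52-fold, with a log2 fold change of 1.81 and a 95% interval of 1.71 to 1.91, and 605 genes had a larger one. Both changes passed edgeR's quasi-likelihood test as well, with FDRs of 8.20e-13 for Cx3cl1 and 1.16e-13 for Cxcl16. Cxcl16 overlaps Zmynd15 on the opposite strand, and 15.4% of the 75-base windows along the Cxcl16 transcripts also lie in transcripts of that gene. Zmynd15 had 33 to 58 reads in untreated and 254 to 342 in treated libraries, fewer than the 555 to 753 and 1901 to 2595 reads of Cxcl16, and whether the counting used strand is not given in the sources used here.

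Cx3cl1 lies on the plus strand of chromosome 8 of GRCm38 from 94772009 to 94782427, and Cxcl16 on the minus strand of chromosome 11 from 70453983 to 70459984. RefSeq promoter windows, the 250 bases before a gene's start, were at hand for 8 of the 10 genes, without Cxcl16 and Cxcl5. The Cx3cl1 window held a TATA box by its letters TATAAA on the gene's strand, a match found in 7.59% of 32851 windows, and it lay 6 to 1 bases before the RefSeq start that defines the window and 30 to 25 bases before the start shared by 4 of the 6 GENCODE transcripts. Among the 8 windows that of Ackr3 also held TATAAA, 8 to 3 bases before its start. It is shown in capitals within 30 bases at chr8:94772162-94772191, plus strand, because it belongs to the gene that rose most.
Cx3cl1: ctgccagcccatTATAAAaagcaaccgaga

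The sheddase genes moved little and in the other direction. Adam10, which encodes the protease responsible for much of the constitutive release of CX3CL1 and CXCL16, was at 373, 379, 387 and 391 CPM in untreated and at 360, 352, 347 and 350 CPM in treated libraries. The groups stood apart by a narrow margin, with 373 CPM as the lowest untreated and 360 CPM as the highest treated level. Its log2 fold change was -0.12 with a standard error of 0.0369 (FDR = 0.00189, edgeR). Adam17, which encodes the protease of stimulated shedding, also known as the TNF-converting enzyme, was at 138, 144, 141 and 140 CPM in untreated and at 126, 117, 122 and 120 CPM in treated libraries. Here too every treated library lay below every untreated one. The log2 fold change was -0.21 with a standard error of 0.0415 (FDR = 5.44e-07, edgeR). Both falls kept their sign and their side of the threshold in every alternative tried, with log2 fold changes between -0.19 and -0.11 for Adam10 and between -0.28 and -0.20 for Adam17. Adam10 spans 70678997 to 70780229 on the plus strand of chromosome 9, and Adam17 spans 21323509 to 21373632 on the minus strand of chromosome 12. Their promoter windows were the richest in G and C among the 8, at 74.0% and 70.4%, with 29 and 23 CG dinucleotides against a median of 6 over all windows, and neither held TATAAA.

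Ligand was related to sheddase by the ratio of reads within each library, which does not depend on library size. For Cx3cl1 to Adam10 the mean log2 ratio went from -6.89 ± 0.23 in untreated to -3.32 ± 0.14 in treated libraries (SD, n = 4 each), a difference of 3.57 with a standard error of 0.136. For Cx3cl1 to Adam17 the difference was 3.67 with a standard error of 0.144. For Cxcl16 the differences were 1.93 to Adam10 and 2.03 to Adam17, with standard errors of 0.0280 and 0.0421. All 4 ratios were higher in 4 of 4 treated libraries than in any untreated library, and the smallest gap between the groups was 1.85 (exact two-sided permutation test over libraries, p = 0.0286 before and after Benjamini-Hochberg adjustment over the 4 ratios, the smallest p that 4 against 4 allow). For every 100 reads of Adam10 there were 0.843 reads of Cx3cl1 and 7.50 of Cxcl16 in untreated cells, and 10.04 and 28.7 in treated cells. For every 100 reads of Adam17 these numbers were 2.29 and 20.4 in untreated and 29.2 and 83.3 in treated cells. As fold changes the ratios to Adam10 grew 11.9-fold for Cx3cl1 and 3.82-fold for Cxcl16, and those to Adam17 grew 12.7-fold and 4.08-fold. Most of each difference came from the ligand, since the sheddases changed by at most 0.21 on the log2 scale. The study had already named both ligand genes as induced in these libraries, and the ratios share ligands and sheddases. The separation of the groups was thus largely fixed in advance, and the 4 p-values are not separate support for it. The study's methods list both ligand genes for qPCR, but its results name only Il7, Il15, Ccl17 and Il6 as upregulated by that method. Protein levels, protease activity and shed ligand were not measured in these data.

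**Figure D2:**
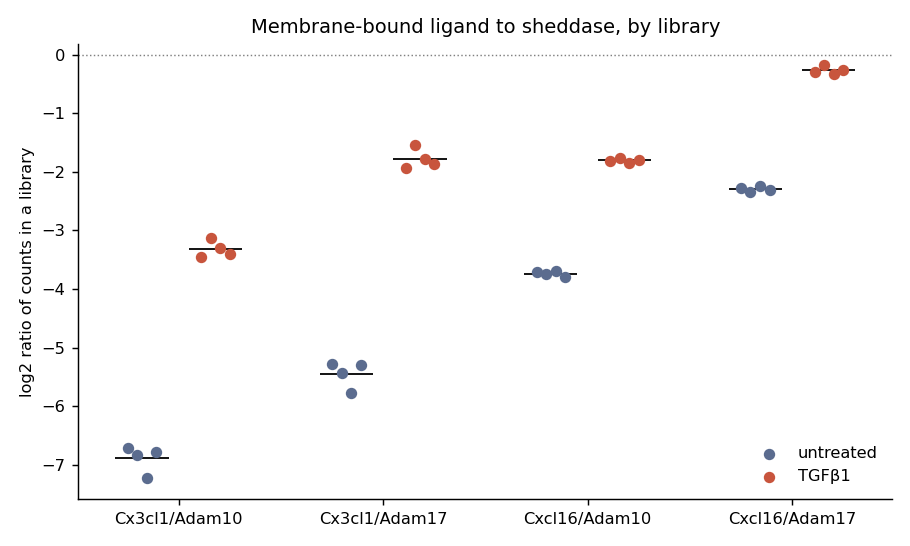
Log2 ratio of reads of Cx3cl1 or Cxcl16 to reads of Adam10 or Adam17 within each library (vertical axis) for 4 untreated (blue) and 4 TGFβ1-treated (red) libraries, with lines at the means and a dotted line at equal read numbers. In each of the 4 ratios the treated libraries lie above the untreated ones, by 1.93 to 3.67 on average, and the ratios are of reads and not per length of transcript.

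Levels of different genes were compared per kilobase of exon, using the union of exons in GENCODE M21. In untreated cells the order was Cxcl12 (107 CPM per kb), Adam10 (77.8), Cxcl10 (44.7), Cxcl1 (31.1), Adam17 (19.6), Cxcl5 (11.1), Cxcl16 (9.50), Cx3cl1 (0.827), Ackr3 (0.689) and Cxcl14 (0.115), each a mean over 4 libraries. The neighbors Cx3cl1 and Ackr3 overlapped between libraries, and all other neighbors were apart. In treated cells Cxcl16 stood at 33.4 ± 1.06 CPM per kb (SD, n = 4), above Adam17 at 16.9 ± 0.560, whereas in untreated cells it had been below Adam17. Cx3cl1 reached 9.02 ± 0.854 CPM per kb and remained below both sheddases. Cxcl12 and Adam10 kept the first and second places, at 142 and 71.7 CPM per kb. Cxcl1 stood at 38.7 and Cxcl10 at 32.9 ± 11.5, whose libraries overlapped with those of Cxcl1 and Cxcl16.

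Most genes examined whose products act on the sheddases changed by more than the sheddase genes themselves, as did most of all genes tested. Of 13818 genes tested, 2370 had an absolute log2 fold change at or under that of Adam10. For Adam17 this number was 4138. Of 13 genes for partners and inhibitors, 12 were tested, of which 7 rose, 4 fell and 1 did not pass the test, with a median log2 fold change of 0.35. Over all genes tested, 37.6% rose and 38.0% fell. TspanC8 tetraspanins carry ADAM10 to the cell surface and direct it to its substrates, and 4 of the 5 tested fell. Tspan15 went from 20.7 ± 0.749 to 10.3 ± 0.975 CPM, Tspan5 from 35.6 ± 0.728 to 21.5 ± 1.73, Tspan14 from 31.3 ± 1.42 to 22.0 ± 0.961 and Tspan33 from 5.60 ± 0.558 to 2.94 ± 0.392 (SD, n = 4 each). Tspan15 was thus 2.01-fold higher in untreated cells, and the log2 fold changes of Tspan5, Tspan14 and Tspan33 were -0.72, -0.50 and -0.92. Tspan17 rose from 2.33 ± 0.391 to 3.78 ± 0.264 CPM, and Tspan10, with 0 to 3 reads per library, was not tested. The genes for the ADAM17 chaperone side moved upward in part. Rhbdf2, which encodes iRhom2, rose by 0.58 on the log2 scale and Frmd8, whose product stabilizes iRhoms, by 0.63. Rhbdf1, which encodes iRhom1, did not pass (log2 fold change -0.000765, FDR = 0.993, edgeR). The proprotein convertase genes Furin and Pcsk7, whose products remove the inhibitory prodomains, rose by 0.34 and 0.47. Timp3, which encodes the main natural inhibitor of ADAM17, rose from 3325 ± 281 to 5693 ± 20.6 CPM, or by 0.78 on the log2 scale, and Timp1, whose product inhibits ADAM10, rose by 0.37.

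Among 13 genes of other membrane proteases and γ-secretase subunits, 12 were tested, of which 9 rose, 1 fell and 2 did not pass, with a median log2 fold change of 0.39, against 37.6% that rose and 38.0% that fell among all genes tested. Adam8 rose from 0.954 ± 0.137 to 7.46 ± 0.421 CPM, Adam12 from 45.1 ± 3.05 to 119 ± 8.89 and Mmp14, the membrane-type collagenase gene, from 731 ± 19.2 to 1650 ± 36.7 (SD, n = 4 each), with log2 fold changes of 2.95, 1.40 and 1.17. Adam19 and Adam15 rose by 0.86 and 0.73, Adam9 by 0.35 and Bace1, the β-secretase gene, by 0.42 on the log2 scale. Adam10 and Adam17 thus fell while each of the 5 other ADAM genes examined rose. The γ-secretase complex cuts the membrane stubs left after shedding. Its genes went in different directions, with rises of Ncstn (0.35) and Aph1a (0.15), a fall of Psenen (-0.44) and a value for Psen2 that did not pass (-0.06, FDR = 0.476, edgeR), all as log2 fold changes.

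**Figure D3:**
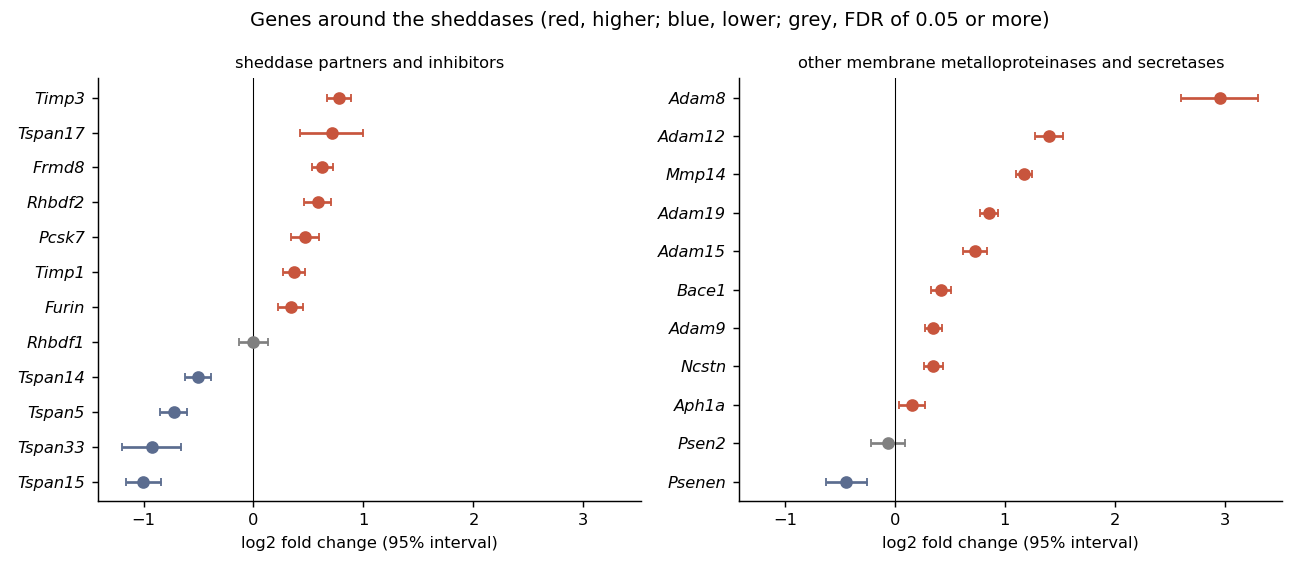
Log2 fold change after TGFβ1 with its 95% interval (horizontal axis) for the 12 tested genes of sheddase partners and inhibitors (left) and 11 of the 12 tested genes of other membrane proteases and γ-secretase (right). The tetraspanin genes Tspan5, Tspan14, Tspan15 and Tspan33 are on the lower side, and Adam8 is farthest to the right at 2.95.

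The ligands of CXCR2, the neutrophil-attracting receptor, went in opposite directions. Cxcl5 was at 23.6, 20.8, 18.6 and 19.5 CPM in untreated and 10.9, 8.96, 11.4 and 10.9 CPM in treated libraries, so that all treated libraries were lower. It fell by 0.97 on the log2 scale, with a standard error of 0.0984 (FDR = 3.18e-22, edgeR), and was 1.96-fold higher in untreated cells. Cxcl1 was at 65.0, 64.4, 57.6 and 46.1 CPM in untreated and 68.1, 66.8, 76.7 and 78.6 CPM in treated libraries. The groups did not overlap, but the highest untreated and the lowest treated library were close, at 65.0 and 66.8 CPM. This separation depended on the TMM scaling. Relative to total counts, untreated replicate 1 (1350 of 20323647 reads) lay above TGFβ1 replicate 2 (1372 of 21110190 reads). The log2 fold change was 0.31 with a standard error of 0.0944 (FDR = 0.00137, edgeR), and it ranged from 0.22 to 0.36 with each library left out in turn. Both genes lie on the plus strand of chromosome 5, Cxcl5 from 90759360 to 90761624 and Cxcl1 from 90891241 to 90893115, with 129616 bases between them. Other CXCR2 ligand genes, Cxcl2 and Cxcl3, had 0 to 13 and 0 to 4 reads per library and were not tested.

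Cxcl10, an interferon-inducible ligand of CXCR3 that attracts activated T cells, fell on average but not in every library. It was at 93.4, 98.7, 91.4 and 119 CPM in untreated and at 67.4, 61.2, 112 and 55.7 CPM in treated libraries. The gene lies on the minus strand of chromosome 5 from 92346638 to 92348889. TGFβ1 replicate 3 lay within the untreated range and the other treated libraries lay below it. The log2 fold change was -0.44 with a standard error of 0.171 (FDR = 0.0141 in edgeR, 0.0277 with its quasi-likelihood test), and DESeq2 did not call it (log2 fold change -0.43, adjusted p = 0.107). Without TGFβ1 replicate 3 the log2 fold change was -0.71 (FDR = 7.38e-14 from edgeR). The call was lost without untreated replicate 4 (-0.35, FDR = 0.0622), without TGFβ1 replicate 1 (-0.40, FDR = 0.0504), without TGFβ1 replicate 2 (-0.36, FDR = 0.0617) and without TGFβ1 replicate 4 (-0.32, FDR = 0.0621, all from edgeR). Other interferon-inducible genes, chosen after the values were seen, were examined beside it. In 10 of 10 such genes (Isg15, Ifit1, Ifit2, Ifit3, Rsad2, Oasl2, Mx1, Mx2, Irf7 and Usp18) TGFβ1 replicate 3 was the highest of the treated libraries, and in 6 of 10 untreated replicate 4 was the highest of the untreated ones. Cxcl9, Cxcl11 and Irf1, which interferon also induces, did not share this, since TGFβ1 replicate 2 was their highest treated library. Rsad2, for instance, was at 10.5, 10.6, 8.04 and 18.1 CPM in untreated and at 7.52, 6.57, 14.3 and 6.02 CPM in treated libraries. Unlike Cxcl10, most of these genes had the higher mean in treated cells, as with Isg15, which was at 53.7 to 82.0 CPM in untreated and 126 to 165 CPM in treated libraries. Margins between treated libraries were small in some, as with Oasl2 at 187 CPM in TGFβ1 replicate 3 and 184 CPM in TGFβ1 replicate 2. The share of all genes tested with their highest treated level in TGFβ1 replicate 3 was not determined. The part of this variation in the result for Cxcl10 was not tested. For Cxcl10, 2.47% of such 75-base windows lie also in Art3, a gene on the opposite strand, which had 10 to 53 reads per library.

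**Figure D4:**
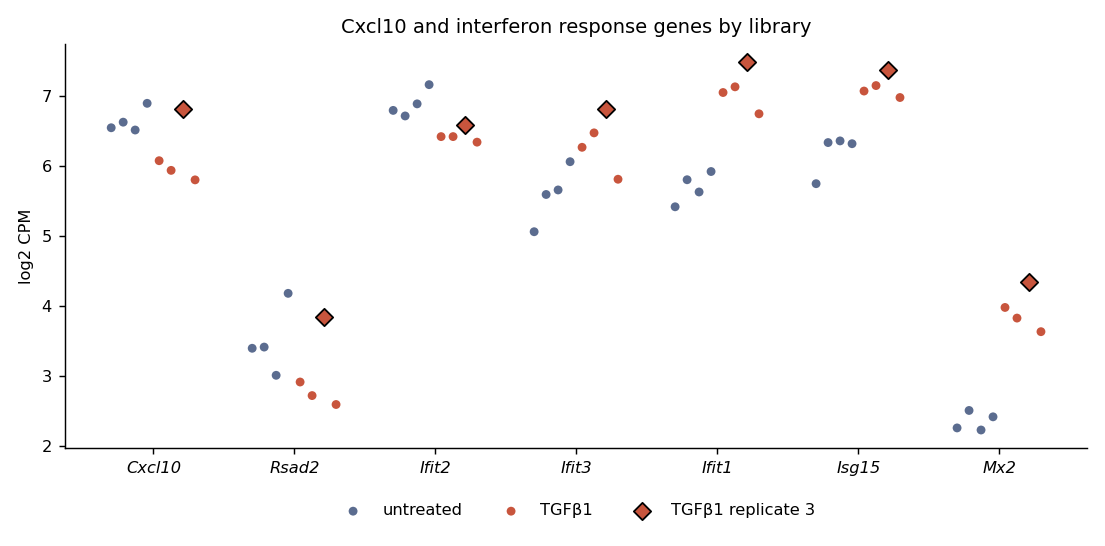
Log2 CPM of Cxcl10 and 6 interferon-inducible genes (vertical axis) in untreated (blue) and TGFβ1-treated (red) libraries, each gene's libraries in the order of their replicate numbers, with TGFβ1 replicate 3 as a diamond. The diamond is the highest treated point in each gene, also where the treated libraries lie above the untreated ones, as in Ifit1, Isg15 and Mx2.

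The promoter windows of Cxcl1 and Cxcl10 are shown because both genes are textbook targets of NF-κB, lie on the same chromosome and moved in opposite directions. Capitals mark matches, on either strand, to GGG and TTCC with any 3 bases between them (NF-κB, in 4.65% of all windows), 2 copies of GAAA with any 2 bases between them (the interferon-stimulated response element, in 2.98%) and TGANTCA (AP-1, in 6.75%). Cxcl1 held 3 NF-κB matches, 2 of which overlap on opposite strands. Cxcl10 held 2 NF-κB matches, 1 interferon element and 1 AP-1 match. The stretches end just before the start of the gene in GENCODE M21, at chr5:90890995-90891240, plus strand, and chr5:92348890-92349139, minus strand, in GRCm38.p6.
Cxcl1: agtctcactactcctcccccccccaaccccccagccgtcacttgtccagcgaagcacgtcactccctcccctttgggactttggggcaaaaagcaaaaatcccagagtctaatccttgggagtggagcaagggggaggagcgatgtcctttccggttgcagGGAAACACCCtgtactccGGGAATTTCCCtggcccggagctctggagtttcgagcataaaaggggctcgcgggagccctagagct
Cxcl10: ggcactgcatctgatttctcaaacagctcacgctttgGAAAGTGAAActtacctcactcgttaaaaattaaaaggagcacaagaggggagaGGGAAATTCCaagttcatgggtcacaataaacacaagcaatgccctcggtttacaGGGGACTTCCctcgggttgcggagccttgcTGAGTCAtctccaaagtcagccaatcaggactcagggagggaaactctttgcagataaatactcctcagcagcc

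None of the other 6 windows held an NF-κB match, and Cxcl14 held 1 interferon element. The letters CAGAC of a SMAD binding element occurred on neither strand in any of the 8 windows, against 42.2% of all windows, which says only that these letters are not in these bases.

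Regulators known to act on such promoters were examined beside them. Of 8 NF-κB and interferon regulators, all tested, 4 rose, 2 fell and 2 did not pass, with a median log2 fold change of 0.26. This share is near the 75.6% called among all genes tested. Tnfaip3, a feedback inhibitor of NF-κB, rose from 29.7 ± 1.87 to 83.2 ± 5.69 CPM (SD, n = 4 each), or by 1.48 on the log2 scale. Rela and Irf1 rose by 0.44 each, and Nfkb1 and Relb fell by 0.30 and 0.32 on the log2 scale. Nfkbia, which encodes IκBα, and Nfkb2 did not pass (0.08 with FDR = 0.254 and 0.01 with FDR = 0.872 in edgeR, both on the log2 scale).

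Cxcl12, the homeostatic ligand of CXCR4 that holds and guides stem cells, lymphocytes and many tumor cells, was the most abundant of the 10 genes in both groups. It was at 934, 866, 845 and 849 CPM in untreated and 1177, 1153, 1127 and 1191 CPM in treated libraries, with no overlap. The log2 fold change was 0.41 with a standard error of 0.0434, a 1.33-fold rise. Ackr3, the gene of its scavenger, was at 2.26, 2.07, 2.05 and 2.84 CPM in untreated and 4.54, 4.14, 3.49 and 3.34 CPM in treated libraries. All treated libraries were above all untreated ones, at a level resting on 47 to 86 reads per library. The log2 fold change was 0.75 with a standard error of 0.157 (FDR = 3.01e-06, edgeR), a 1.68-fold rise. Cxcl12 lies on chromosome 6 from 117168535 to 117181367 and Ackr3 on chromosome 1 from 90203980 to 90216751, both on the plus strand. Of 5 genes whose products process CXCL12 or couple its receptors, 4 were tested and all 4 fell, with a median log2 fold change of -0.65, against 38.0% that fell among all genes tested. Dpp4, which encodes the peptidase that removes the first residues of CXCL12 and inactivates it, fell from 2.49 ± 0.376 to 0.285 ± 0.149 CPM. The log2 fold change of Dpp4 was -3.12 with a standard error of 0.323. It rested on 42 to 66 reads per untreated library and only 3 to 10 reads per treated library. The β-arrestin genes Arrb1 and Arrb2 fell by 0.92 and 0.35 and the receptor kinase gene Grk2 by 0.38, all on the log2 scale.

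**Figure D5:**
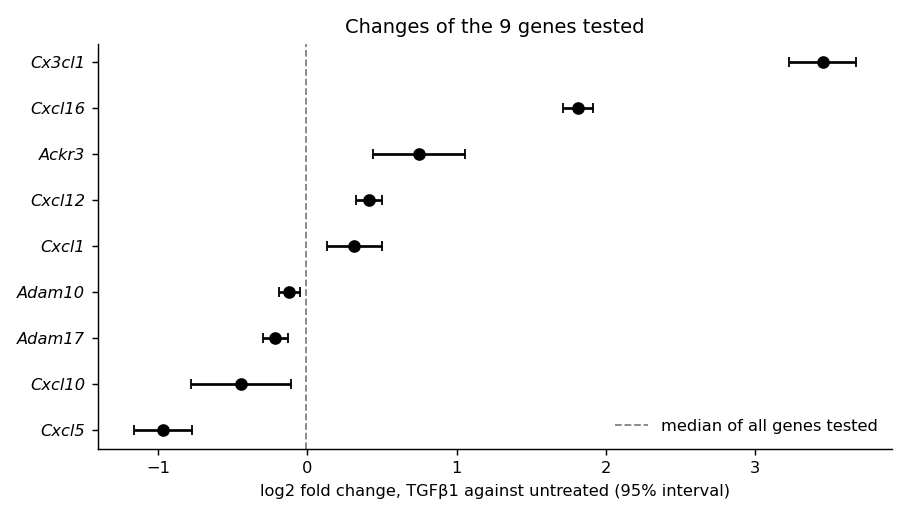
Log2 fold change after TGFβ1 with its 95% interval (horizontal axis) for the 9 genes tested, with a dashed line at the median of all genes tested. Cx3cl1 at 3.45 and Cxcl16 at 1.81 stand to the right of the other genes, and the sheddases Adam10 and Adam17 lie just to the left of the line.

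Receptors for these chemokines were at or near 0 in the cells themselves. Cxcr1, Cxcr3 and Ackr1 had 0 reads in all 8 libraries, which allows up to 0.113 to 0.162 CPM. Cxcr2 had 0 or 1 reads per library, Cx3cr1 0 to 4, Cxcr4 0 to 5 and Cxcr6 0 to 7, and Cx3cr1 and Cxcr6 had 0 in every untreated library. Of the 10 receptor and scavenger genes other than Ackr3, only Ackr4 was tested, a scavenger of CC chemokines that rose from 0.211 ± 0.0344 to 1.19 ± 0.366 CPM (SD, n = 4 each), or by 2.46 on the log2 scale. Ackr4 had only 4 to 6 reads per untreated library and 17 to 35 per treated library. Among 9 other CXC ligand genes, Cxcl9 alone was tested and did not pass (log2 fold change 0.35, FDR = 0.289, edgeR). Cxcl11, the other interferon-inducible CXCR3 ligand, had 2 to 6 reads in untreated and 11 to 19 in treated libraries, without overlap, and was not tested. Its level was thus higher in the treated libraries, unlike that of Cxcl10. Cxcl14, a CXC chemokine gene expressed mainly in epithelia, on the minus strand of chromosome 13 from 56288643 to 56296551, had 7, 0, 8 and 3 reads in untreated and 1, 8, 7 and 6 in treated libraries. The groups overlapped, and a difference was not detectable at this depth. Over the 6 lists together, 38 of 58 genes were tested, 21 rose and 11 fell, with a median log2 fold change of 0.35. Among all genes tested, 37.6% rose and 38.0% fell, and the lists were chosen with earlier results of these data known.

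The genes whose log2 CPM (prior count of 2) followed Cx3cl1 most closely over the 8 libraries were Plod2 and Yeats2 (Pearson's r = 0.999 for each), and for Cxcl16 they were Traf3, Cdh11 and Mmp14 (r above 0.99 for each). The 8 points fall into 2 groups, and 663 and 843 genes respectively had an r above 0.99, so the likeness is shared by many genes that rose after TGFβ1.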

How the data were processed

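RNA-seq read counts of 8 svLEC libraries, 4 untreated and 4 exposed for 72 h to 10 ng/ml TGFβ1, were analyzed. The authors deposited raw counts of reads per gene. Per the labels, the submitters' processing notes name bcl2fastq 2.20.0.422, STAR 2.7.3a, featureCounts 1.5.1 and GRCm38. The annotation release and the strand setting are not given in the sources used here. Libraries were grouped by their titles. The authors' named test was followed: edgeR 4.0.16 in R 4.3.3 with filterByExpr, TMM, glmFit and glmLRT, and Benjamini-Hochberg FDRs over all 13818 genes tested, at a threshold of 0.05. Standard errors come from the fitted negative binomial weights, and 95% intervals from these. The quasi-likelihood test, DESeq2 1.42.0, other scalings and filters, a replicate block and each library left out served as alternatives. The fits were also run on simulated data in which few genes changed. That run does not cover a comparison in which most genes tested are called. For the ratios an exact permutation test over libraries was used. Positions, exon lengths and stretches of 75 bases shared between transcripts came from GENCODE M21, promoters from RefSeq (GRCm38.p6). Total counts of 18952504 to 26386941 put a floor of 3 counts at 0.113 to 0.162 CPM.

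Named were the 10 members, genes of the 6 pathway lists that passed the FDR with an absolute log2 fold change above 1 or that encode direct receptors or regulators, further genes of these lists as their roles required, the 3 genes most like Cx3cl1 and Cxcl16 by Pearson correlation, and cell type markers. The members and lists were chosen with earlier results of these data known. The interferon-inducible genes beside Cxcl10, Zmynd15, Art3 and Iah1 were added after their values were seen. Values of 3 genes that this rule would name are not reported here.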

Additional observations from a re-analysis of the deposited data

How the results depend on the processing

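Apart from Cxcl10, each of the 9 genes kept its direction and its side of the threshold under the 8 other settings and in the 8 fits that left out 1 library each. Cxcl10 was not called by DESeq2 (log2 fold change -0.43, adjusted p = 0.107) or at an FDR of 0.01. With 1 library left out its log2 fold change ranged from -0.71 to -0.32 and 4 of 8 fits kept the call. Of the members, 5 rose and 3 or 4 fell under every setting. Leaving out libraries gave log2 fold changes of 3.35 to 3.49 for Cx3cl1, 1.80 to 1.83 for Cxcl16, -0.14 to -0.11 for Adam10 and -0.23 to -0.20 for Adam17. Of the listed genes 20 to 26 rose, the most without a filter on low counts, and 11 fell. The replicate numbers did not pair the libraries, since the deviations of same-numbered libraries from their group means correlated at -0.19 to -0.034 and no library correlated best with its own number. With the replicate block 5 members rose and 4 fell, and 21 listed genes rose and 11 fell. For the ratios, the paired differences were 3.57, 3.67, 1.93 and 2.03 with an adjusted p of 0.125 (exact sign-flip permutation test), the smallest that 4 pairs allow, so this test could not pass. Counts under about 10 reads per library, as for Cxcl14 and most receptors, limit what the depth can show.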
